A study of Mus musculus with 6 samples.

Results

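The collagen genes of mouse white fat were read on 6 expression arrays. Members were all genes whose platform symbol is Col, a number, the letter a and a number, and each gene was represented by its probe set with the highest mean over the 6 arrays. This gave 42 collagen genes, read by 82 probe sets, among 18193 genes with a probe set of their own. A detection filter kept probe sets with a mean at or above the 40th percentile of all probe sets, a log2 level of 4.88. The filter left 35 collagen genes among 13453 genes tested. The remaining 7 (Col8a2, Col9a2, Col11a1, Col11a2, Col17a1, Col24a1 and Col26a1) lay below it and are described without a test.

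All arrays came from visceral white fat of the gonadal pad of male C57BL/6 mice, 16 weeks old, fed chow and taken in the random fed state. The 3 control arrays were from FTO flox/flox mice. The 3 AFO arrays were from Adiponectin-cre FTO flox/flox mice, so both genotypes carry the floxed allele and only AFO carries the Cre, whose adiponectin regulatory sequence is active in fat cells. Each array was made from its own RNA pool, numbered 1 to 3 in each genotype, and how many mice entered a pool is not given in the sources used here. The p-values measure the spread between these pools.

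Collagens are proteins of 3 chains wound into a triple helix, and they make up most of the solid matrix of fat. Fibrillar collagens (types I, II, III, V, XI, XXIV and XXVII) assemble into rope-like fibrils laid down mainly by fibroblasts. Type IV collagen forms the sheet of the basement membrane, which wraps each fat cell and each capillary. Type VI forms beaded filaments between the basement membrane and the fibrils and is abundant in fat, and types XV and XVIII are proteoglycans of the basement membrane zone. The fibril-associated collagens decorate fibril surfaces, types VIII and X form short-chain networks, and some collagens (XIII, XVII, XXIII and XXV) span the cell membrane. In bulk tissue a lower level of a collagen can come from fewer cells that make it or from less RNA per cell, and the arrays cannot tell these apart.

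The 6 type IV chains lie in the genome as 3 pairs, each pair transcribed in opposite directions. In the RefSeq annotation (GRCm38.p6) Col4a1 and Col4a2 overlap by 85 bases at their 5′ ends on chromosome 8, and Col4a3 and Col4a4 by 114 bases on chromosome 1. On the X chromosome Col4a6 and Col4a5 start 1274 bases apart. The 200 bases upstream of the annotated gene are printed from RefSeq for that last pair, whose chains were lower together in the pool 2 arrays, and for Col1a2 and Col3a1, chains of the main fibrils. Positions are chr6:4505418-4505617 (plus strand) for Col1a2, chr1:45311338-45311537 (plus strand) for Col3a1, chrX:141475170-141475369 (plus strand) for Col4a5 and chrX:141474096-141474295 (minus strand) for Col4a6. Capitals mark matches on either strand to the letters TATAAA of the TATA box, to the box named by its letters CCAAT and to the GC box letters GGGCGG.
Col1a2: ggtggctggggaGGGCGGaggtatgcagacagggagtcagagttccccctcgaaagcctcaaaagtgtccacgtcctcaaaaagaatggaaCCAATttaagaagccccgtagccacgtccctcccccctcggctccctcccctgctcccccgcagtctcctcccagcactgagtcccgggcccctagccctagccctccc
Col3a1: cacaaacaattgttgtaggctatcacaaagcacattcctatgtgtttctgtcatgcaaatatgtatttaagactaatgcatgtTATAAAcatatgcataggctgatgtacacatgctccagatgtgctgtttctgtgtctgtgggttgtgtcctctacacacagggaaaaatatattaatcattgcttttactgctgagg
Col4a5: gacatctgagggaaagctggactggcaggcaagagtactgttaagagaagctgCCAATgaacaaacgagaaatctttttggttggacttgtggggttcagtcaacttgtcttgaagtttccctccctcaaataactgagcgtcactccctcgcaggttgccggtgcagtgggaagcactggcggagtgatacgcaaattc
Col4a6: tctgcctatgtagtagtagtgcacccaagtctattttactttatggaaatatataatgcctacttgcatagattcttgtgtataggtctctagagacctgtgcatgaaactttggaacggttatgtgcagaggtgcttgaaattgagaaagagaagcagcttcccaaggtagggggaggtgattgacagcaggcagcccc

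The sequences differ in these letters. In Col1a2 a CCAAT match began 109 bases and a GGGCGG match 188 bases upstream of the gene. Col3a1 held 1 TATAAA match, 117 bases upstream, and Col4a5 held 1 CCAAT match, 147 bases upstream. None of the 3 motifs was matched in the Col4a6 window. Windows of this length were available for 20 of the 42 collagen genes and for 21982 genes in all. GGGCGG was matched in 11 of the 20 (55%) against 27.4% of all windows, CCAAT in 6 (30%) against 30.4%, and TATAAA in 3 (15%) against 11.6%. These are letter matches in a fixed window and say nothing of binding.

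Both pool 2 arrays stood apart from the others in the collagens. The shift of a gene is its pool 2 level minus the mean of pools 1 and 3 of the same genotype. Of the 35 tested collagens, 11 were lower by 1 log2 unit or more in pool 2 of both genotypes, against 2.42% of all genes tested, and 0 were higher by as much, against 2.07%. The median shift of the collagens was -0.79 in control and -0.43 in AFO fat, and that of all genes was -0.07 and -0.09. The 22 collagens at or above the 60th percentile had median shifts of -1.21 and -0.75, and the 13 between the 40th and 60th percentile had 0.12 and 0.0057. Pool 2 is not a group of the design, so no test was made of it.

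**Figure D1:**
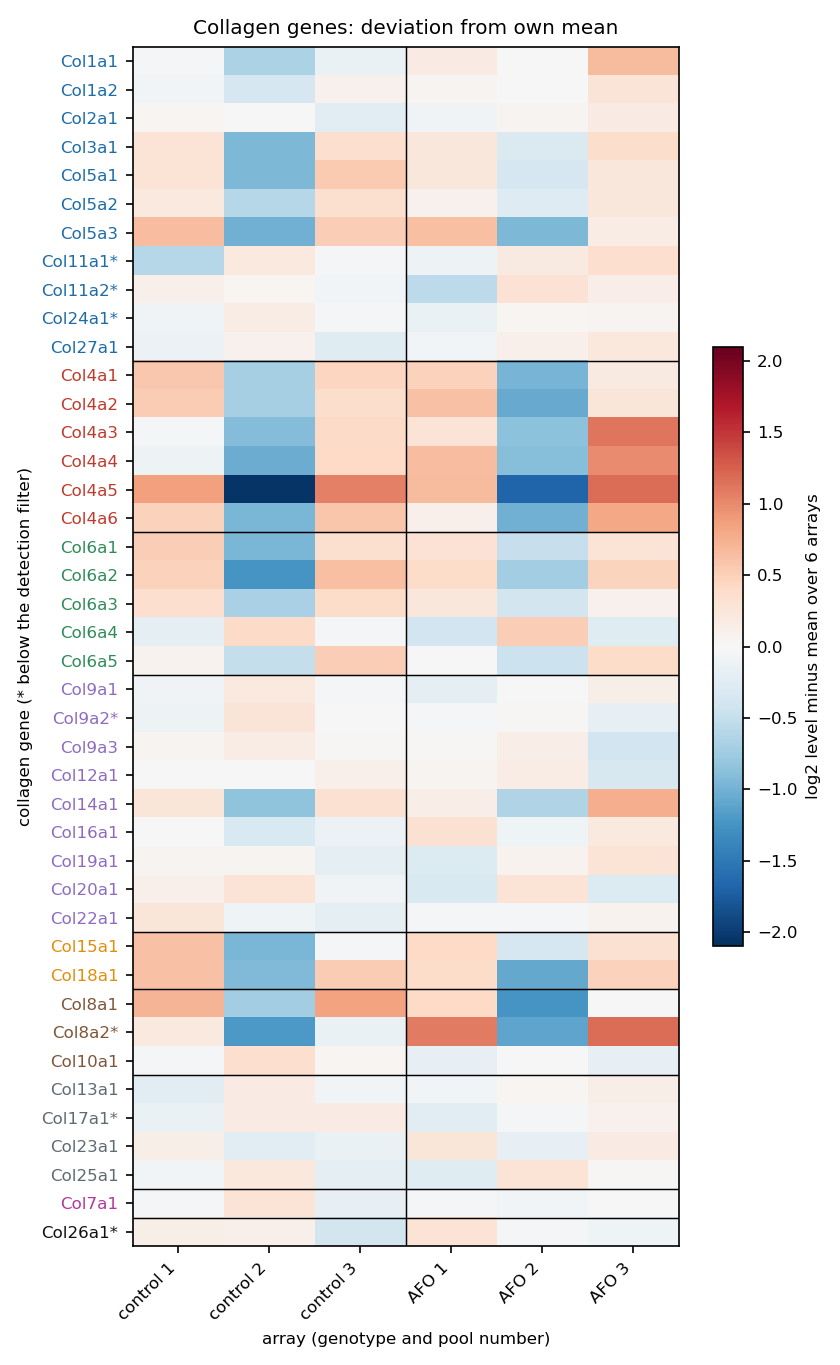
Deviation of each of 42 collagen genes (rows, coloured and ruled off by class, * for those below the filter) from its own mean over the 6 arrays (columns), in log2 units from blue (lower) to red (higher). The type IV genes are blue in both pool 2 arrays, with Col4a5 lowest.

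Markers of other cells moved with these arrays. The summed level of 8 mesothelial markers (log2 of the sum of linear values) was 9.28 and 8.11 in the pool 2 arrays of control and AFO fat and 11.54 to 11.59 in the other 4, and 6 of the 8 were lower by at least 1 log2 unit in both. B cell markers (5 tested) summed to 10.99 and 11.64 against 7.57 to 8.22. T and NK cell markers (7 tested) summed to 11.03 and 11.22 against 8.30 to 8.50. Skeletal muscle markers (8 tested) summed to 12.66 and 14.92 against 8.05 to 12.80. The 12.80 was AFO pool 1, above control pool 2, and control pool 1 read 9.56. Smooth muscle and pericyte markers (8 tested) summed to 12.28 and 12.14 against 12.73 to 13.28, and endothelial markers (8 tested) to 11.34 and 11.10 against 11.60 to 11.96. Fibroblast and progenitor markers (8 tested) summed to 12.25 and 12.26 against 12.26 to 12.48, and adipocyte markers (6 tested) to 15.28 and 15.00 against 15.14 to 15.36. The fibroblast and progenitor sum hid opposite moves, with 4 of the 8 lower in pool 2 of each genotype. In control and AFO fat Fbln2 shifted by -1.75 and -1.81 and Cd34 by -0.92 and -0.52, while Thy1 shifted by 1.35 and 1.63. Neutrophil markers (6 tested) summed to 9.94 and 11.11 against 8.10 to 8.54, macrophage markers (8 tested) to 12.95 and 13.07 against 12.86 to 13.31, and Schwann cell markers (3 tested) to 9.34 and 9.14 against 8.75 to 9.17. The markers Cr2 of B cells, Plin1 and Cfd of fat cells, Lck of T cells, Ly6a of progenitors and Ly6g and Mpo of neutrophils were among the listed genes that were not tested. The part of these cells in the collagen values was not tested. Fto itself, the floxed gene, read 6.11, 6.20 and 5.59 in control pools 1, 2 and 3 and 6.13, 5.45 and 5.95 in AFO pools 1, 2 and 3. These levels overlapped, and whether the probe set lies in the deleted part is not given.

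Type IV collagen was the class in which all tested chains were lower in pool 2 by at least 1 log2 unit in both genotypes, 6 of 6 on the probe sets used. Second probe sets above the filter were also lower in both, but only that of Col4a5 by 1 log2 unit in both (-2.52 and -2.34). In control and AFO fat they gave -0.70 and -0.96 for Col4a1 and -0.38 and -0.86 for Col4a3. For Col4a4 they gave -0.94 and -1.44, and for Col4a6 -1.17 and -0.76. Col4a5, the alpha 5 chain, read 8.92, 6.00 and 9.12 in control pools 1, 2 and 3 and 8.74, 6.38 and 9.24 in AFO pools 1, 2 and 3. Both pool 2 values lay far under the other 4, by 8.09 times in control and 6.09 times in AFO fat. Its partner Col4a6 read 7.17, 5.72 and 7.26 in control and 6.78, 5.67 and 7.48 in AFO fat, so its pool 2 shift was -1.50 and -1.47. The pair shared the direction and not the size.

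Col4a1 and Col4a2 encode the chains of the common type IV network. Col4a1 read 12.37, 11.09 and 12.24 in control pools 1, 2 and 3 and 12.27, 10.82 and 11.98 in the AFO pools. Col4a2 read 10.79, 9.55 and 10.62 in control and 10.86, 9.19 and 10.51 in AFO fat. Their shifts were alike, -1.21 and -1.16 in control and -1.30 and -1.50 in AFO fat, and in both genes AFO pool 2 was the lowest of the 6 arrays.

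Col4a3 and Col4a4 encode chains of specialised basement membranes, best known from the kidney. Col4a4 read 6.41, 5.46 and 6.92 in control pools 1, 2 and 3 and 7.15, 5.62 and 7.50 in the AFO pools. Col4a3 read 5.27, 4.39 and 5.71 in control and 5.59, 4.45 and 6.42 in AFO fat. In each pool number the AFO array was the higher, by 0.74, 0.15 and 0.58 for Col4a4 and by 0.32, 0.06 and 0.71 for Col4a3. A second probe set of Col4a4 above the filter gave a mean difference of 0.25 between genotypes, and one of Col4a3 gave -0.060.

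The main fibrillar chains were lower in pool 2 to unequal degrees. Col3a1, the type III chain of reticular fibrils, read 12.52, 11.28 and 12.58 in control pools 1, 2 and 3 and 12.45, 11.92 and 12.59 in the AFO pools. Its shift was -1.26 in control and -0.60 in AFO fat. Type I collagen, the main fibril of most connective tissue, shifted less on the probe sets used here. Col1a2 read 11.46, 11.16 and 11.61 in control and 11.58, 11.51 and 11.79 in AFO fat, a shift of -0.37 and -0.17. Col1a1 read 10.71, 10.07 and 10.61 in control and 10.91, 10.74 and 11.41 in AFO fat, a shift of -0.59 and -0.42. The second probe sets of these genes gave larger shifts in control fat, -1.14 for Col1a1, -1.10 for Col1a2 and -3.06 for Col3a1. In AFO fat they gave -0.33, -0.44 and -1.37, so the order of types I and III was kept while the size depended on the probe set.

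Type V collagen co-assembles with type I and limits fibril width. Col5a1 read 8.58, 7.35 and 8.84 in control pools 1, 2 and 3 and 8.53, 7.94 and 8.54 in the AFO pools. Col5a2 read 10.18, 9.38 and 10.32 in control and 10.08, 9.72 and 10.22 in AFO fat. Col5a3 read 9.69, 8.04 and 9.56 in control and 9.68, 8.10 and 9.20 in AFO fat. All 3 chains were lowest in the pool 2 arrays. In all 3 the AFO pool 2 array was less far below than the control one. The shifts in control and AFO fat were -1.36 and -0.59 for Col5a1, -0.88 and -0.43 for Col5a2 and -1.58 and -1.34 for Col5a3.

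The 3 chains of the classical type VI filament followed the same arrays. Col6a1 read 10.48, 8.998 and 10.29 in control pools 1, 2 and 3 and 10.25, 9.46 and 10.24 in the AFO pools. Col6a2 read 10.26, 8.54 and 10.41 in control and 10.17, 9.06 and 10.25 in AFO fat. Col6a3, the longest chain and the source of the fragment endotrophin, read 10.06, 9.02 and 10.08 in control and 9.94, 9.31 and 9.79 in AFO fat. In all 3 genes the control pool 2 array was lowest and the AFO pool 2 array next. Col6a5 read 5.47, 4.91 and 5.93 in control and 5.40, 4.96 and 5.79 in AFO fat, and was also lowest in pool 2. Col6a4 ran the other way, at 5.39, 6.00 and 5.55 in control and 5.20, 6.11 and 5.34 in AFO fat. Col6a6 was not analysed here.

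The proteoglycan collagens of the basement membrane zone were lower in pool 2 as well. Col18a1, whose C-terminal fragment is endostatin, read 9.05, 7.51 and 8.97 in control pools 1, 2 and 3 and 8.81, 7.35 and 8.93 in the AFO pools, a shift of -1.50 and -1.52. Col15a1 read 7.70, 6.12 and 7.07 in control and 7.50, 6.74 and 7.41 in AFO fat, a shift of -1.26 and -0.72. Col8a1, a network collagen of vessel walls, read 8.45, 6.99 and 8.58 in control and 8.14, 6.49 and 7.72 in AFO fat. Its pool 2 arrays were again the lowest, and within each pool number the AFO array was the lower.

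Among fibril-associated collagens only Col14a1, a collagen of fibril surfaces, was lower by 1 log2 unit in pool 2 of both genotypes. It read 9.06, 7.95 and 9.12 in control pools 1, 2 and 3 and 8.95, 8.17 and 9.57 in the AFO pools. Col16a1 read 6.90, 6.58 and 6.78 in control and 7.22, 6.81 and 7.10 in AFO fat. The other 6 tested members (Col9a1, Col9a3, Col12a1, Col19a1, Col20a1 and Col22a1) had shifts between -0.12 and 0.60. A second probe set of Col12a1 gave shifts of -1.004 and -0.63 where the one used gave -0.06 and 0.29. The cartilage fibril gene Col2a1, Col27a1, the anchoring fibril gene Col7a1, Col10a1 of growth plate cartilage and the membrane collagens Col13a1, Col23a1 and Col25a1 had shifts between -0.38 and 0.40. Over the 6 arrays the range from lowest to highest was 0.39 log2 units for Col2a1 and 3.23 for Col4a5.

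**Figure D2:**
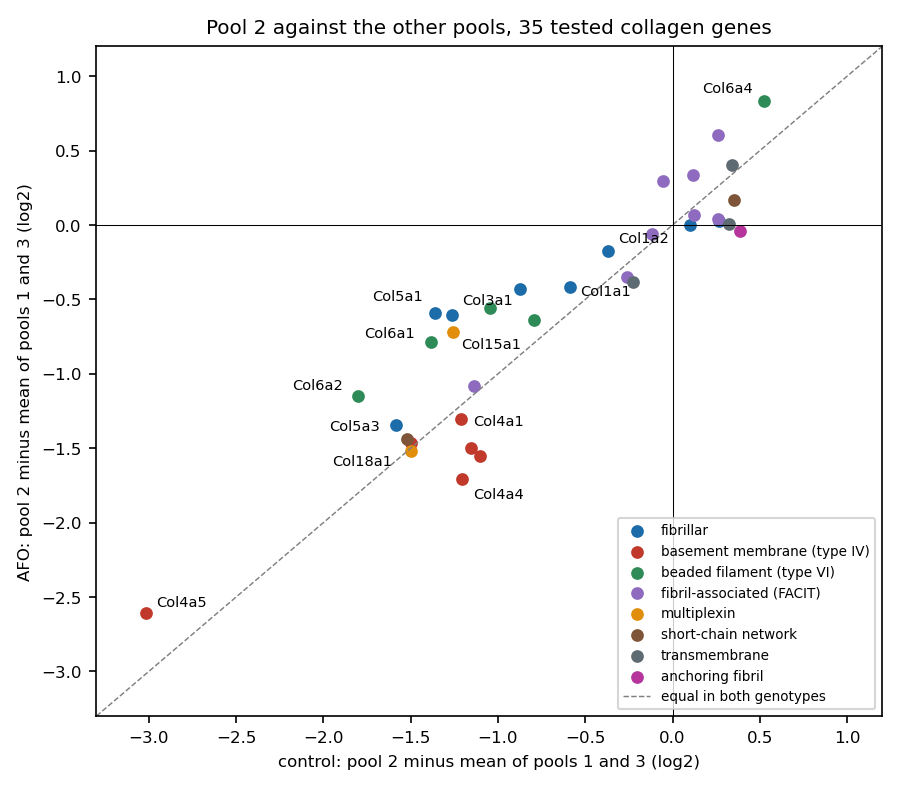
Pool 2 level minus the mean of pools 1 and 3 (log2) in control (horizontal axis) and AFO fat (vertical axis) for the 35 tested collagen genes, coloured by class, with a dashed line of equal shift. Col4a5 lies at -3.02 and -2.61. Col3a1, Col5a1, Col6a1, Col6a2 and Col15a1 lie above the dashed line and Col4a1 and Col4a4 below it.

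Below the filter, Col8a2, the partner chain of Col8a1, was the gene with the widest range. It read 4.67, 3.26 and 4.33 in control pools 1, 2 and 3 and 5.56, 3.36 and 5.64 in the AFO pools. AFO pools 1 and 3 were the 2 highest arrays and the pool 2 arrays the 2 lowest. The other 6 genes below the filter had ranges of 0.30 to 0.96 log2 units. Col28a1 was not analysed here.

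AFO was set against control fat to ask whether collagen transcripts differ where the Cre that acts on Fto in fat cells is present. No collagen passed the test. With limma over all 13453 genes, unpaired, 0 of 35 collagens were called at an adjusted p under 0.05 (0% of all genes), and 0 had an unadjusted p under 0.05 (1.03% of all genes). Of the 35, 20 had a positive and 15 a negative difference, with a median of 0.04 against -0.01 for all genes. The values below are therefore measurements that did not pass.

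Col1a1 was the collagen whose 3 AFO arrays all lay above its 3 control arrays, 1 of 35 against 2.03% of all genes, and 0 of 35 lay wholly below, against 1.47%. The control mean was 10.46 ± 0.34 and the AFO mean 11.02 ± 0.35 (SD, n = 3 each). AFO was thus higher by 0.56 (SE 0.24, 95% interval -0.02 to 1.14), or 1.47-fold. The limma adjusted p was 0.999999 and the unadjusted p of that fit 0.0576. Within pools 1, 2 and 3 the difference was 0.20, 0.67 and 0.80. Leaving out control pool 2 or AFO pool 3 brought the Col1a1 difference to 0.36. Its second probe set gave 0.49, with overlapping groups. Col1a2, which pairs with it in type I collagen, differed by 0.22 (SE 0.16), with 0.12, 0.35 and 0.18 within the pools.

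**Figure D3:**
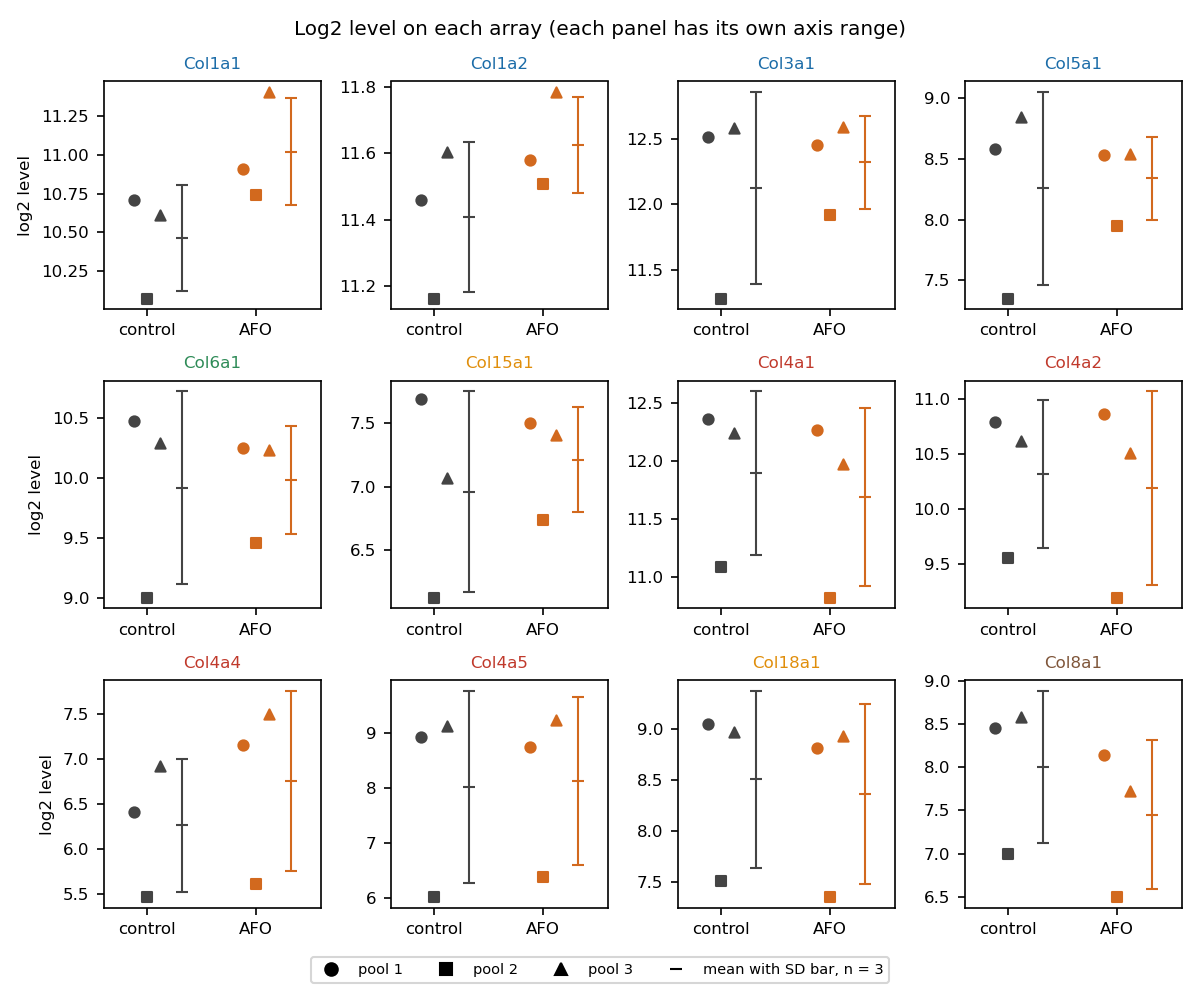
Log2 level of 12 collagen genes on each array, with control in grey, AFO in orange, a marker shape for each pool number and the mean with its SD (n = 3) beside the points; each panel has its own axis range. The square of pool 2 is the lowest point of its genotype in every panel, and in Col1a1 the lowest AFO value of 10.74 lies just above the highest control value of 10.71.

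The other chains did not pass either. Col4a4 differed by 0.49 (SE 0.57) and Col4a3 by 0.37 (SE 0.55). Col4a1 was at -0.21 (SE 0.48, 95% interval -1.36 to 0.94) and Col4a2 at -0.13 (SE 0.51). For Col4a5, whose pools were furthest apart, the difference of 0.10 had an interval from -2.42 to 2.63. Col3a1 differed by 0.19 (SE 0.38), Col18a1 by -0.14 (SE 0.57) and Col8a1 by -0.55 (SE 0.57). Among genes with tighter replicates Col16a1 was at 0.29 (SE 0.17), Col27a1 at 0.19 (SE 0.15) and Col10a1 at -0.22 (SE 0.15). Each of these had a limma adjusted p of 0.999999.

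**Figure D4:**
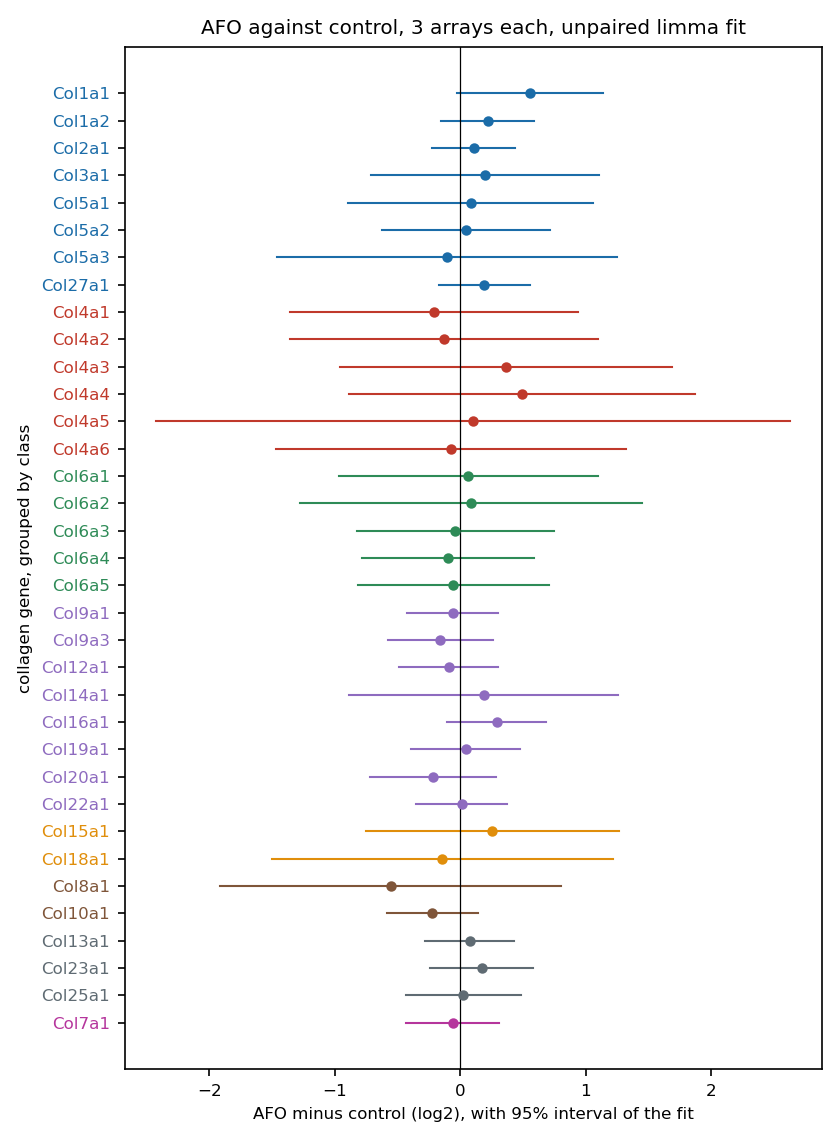
AFO minus control difference (log2, points) with the 95% interval of the unpaired limma fit (lines) for the 35 tested collagen genes, coloured by class. Every interval crosses 0, and the widest belongs to Col4a5, from -2.42 to 2.63.

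With pool number as a block, which compares arrays of equal number, 0 of 35 collagens were called, against 2 of all genes (0.0149%). Unadjusted p under 0.05 was reached by 4 collagens, against 4.32% of all genes. These were Col1a1 (0.00657), Col8a1 (0.00687), Col4a4 (0.0165) and Col16a1 (0.0367), each with a limma adjusted p of 0.990. The SE of Col4a5 was 1.05 unpaired and 0.14 with the block, and that of Col4a1 0.48 and 0.09. Without both pool 2 arrays, 0 of 35 collagens were called against 0.676% of all genes, and 3 had an unadjusted p under 0.05 against 4.98%. Those were Col8a1 at -0.58 (SE 0.19), Col4a4 at 0.66 (SE 0.22) and Col1a1 at 0.50 (SE 0.19). Without pool 2 and with the block, 0 of 35 were called against 2.01% of all genes, and 4 had an unadjusted p under 0.05 against 7.74%. Those were Col4a4, Col8a1, Col1a1 and Col4a3, and the smallest limma adjusted p was 0.0528, for Col4a4, whose AFO arrays of pools 1 and 3 were its 2 highest. The summed epididymal epithelium markers (3 tested) read 9.85 in AFO pool 1 and 6.14 to 6.51 in the other 5 arrays, so they were high in 1 of the 2 arrays in which Col4a4 was highest. Krt8, a keratin of simple epithelia and mesothelium, read 7.78, 7.53 and 6.98 in control pools 1, 2 and 3 and 9.23, 4.63 and 8.94 in the AFO pools, highest in the same 2 arrays as Col4a4. Without both pool 2 arrays it differed by 1.702 (limma adjusted p 0.0349), the 1 of 8 mesothelial markers called in that fit. The part of these cells in the Col4a3 and Col4a4 values was not tested.

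Within pool 2 the main fibrillar and the common type IV chains lay on opposite sides. All 8 tested fibrillar genes were higher in the AFO array of pool 2 than in the control array, as were 5 of 5 type VI genes, where 45.2% of all genes were higher. The widest of these differences were 0.67 for Col1a1, 0.64 for Col3a1, 0.59 for Col5a1, 0.52 for Col6a2 and 0.46 for Col6a1. Some were close to none, at 0.03 for Col27a1, 0.04 for Col2a1, 0.06 for Col5a3 and 0.05 for Col6a5. Other probe sets above the filter were higher for Col1a1, Col1a2, Col3a1, Col5a1 and Col6a2. That of Col5a2 was nearly level and that of Col27a1 was lower in AFO pool 2. Outside these classes Col15a1 differed by 0.61. In the same pair of arrays Col4a1 was at -0.27, Col4a2 at -0.36, Col18a1 at -0.16 and Col8a1 at -0.50. Each value sets 1 array against 1 array, so it has no replicate check. Summed markers of skeletal muscle, neutrophils and B cells were higher in AFO pool 2 than in control pool 2 (14.92 against 12.66, 11.11 against 9.94 and 11.64 against 10.99), and the mesothelial sum lower (8.11 against 9.28). Of the 8 mesothelial markers 6 were lower, most of all the keratins Krt8 (-2.90) and Krt19 (-2.64). Lrrn4 was at -0.92, Msln at -0.48, Upk3b at -0.40, Wt1 at -0.17, Gpm6a at 0.01 and Upk1b at 0.22. The part of all these cells in the collagen differences was not tested.

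The other pools did not show the same split. In pool 1, 3 of 8 fibrillar and 0 of 5 type VI genes were higher in AFO fat, where 55.7% of all genes were higher, and the type VI median was -0.12. In pool 3, 5 of 8 fibrillar and 0 of 5 type VI genes were higher, where 44.7% of all genes were higher, and the type VI median was -0.17. Under quantile normalisation 1 of the 5 type VI genes was higher in pool 3. For type IV, 3, 3 and 4 of 6 genes were higher in pools 1, 2 and 3. Over the 35 collagens, 7 were higher in AFO fat in all 3 pools (Col1a1, Col1a2, Col4a3, Col4a4, Col16a1, Col23a1 and Col27a1), a share of 20% against 10.5% of all genes. On second probe sets above the filter this held for Col1a1 and Col1a2 and not for Col4a3, Col4a4 or Col27a1. That of Col23a1 was lower in all 3 pools. Another 5 of the 35 were lower in all 3 (Col4a1, Col8a1, Col9a3, Col10a1 and Col18a1), a share of 14.3% against 12.8%. The second probe sets of Col8a1 and Col18a1 above the filter were lower in all 3 as well, and that of Col4a1 was higher in pool 1. Vascular markers lay on the lower side too, as did those of some other cells. Smooth muscle and pericyte markers were lower in AFO fat in 8 of 8 (median -0.29), and within pools 1, 2 and 3 in 8, 7 and 7 of them. Endothelial markers were lower in 8 of 8 (median -0.21), and within the pools in 6, 8 and 8. Adipocyte markers were lower in 6 of 6 (median -0.21), mesothelial markers in 7 of 8 (-0.20) and macrophage markers in 7 of 8 (-0.10). Fibroblast and progenitor markers were lower in 4 of 8, and skeletal muscle markers were higher in 8 of 8 (median 2.46). Of all 13453 genes tested, 7298 were lower. None of these cell markers was called in the unpaired limma fit. Their part in the values of Col4a1, Col8a1 and Col18a1 was not tested.

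**Figure D5:**
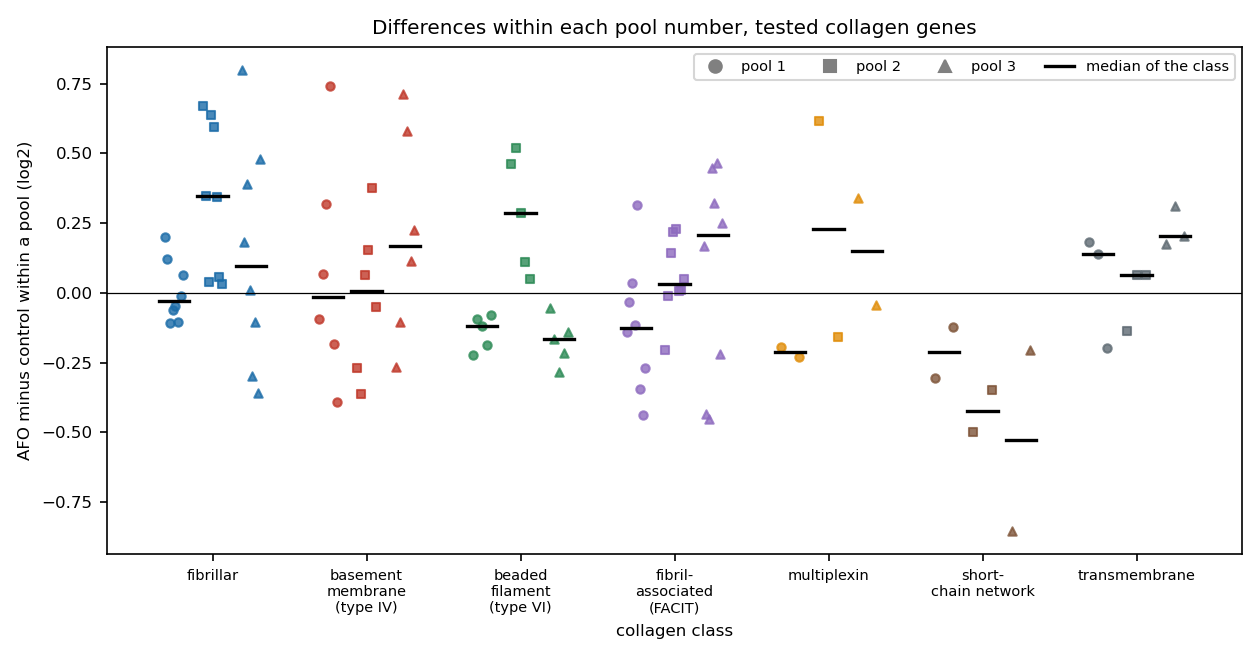
AFO minus control difference (log2) within pool 1 (circles), pool 2 (squares) and pool 3 (triangles) for the tested genes of 7 collagen classes, with black bars at the class medians. The 5 type VI squares lie above 0 and the type VI circles and triangles below it, and the fibrillar squares are all above 0 with a median of 0.35.

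Genes that act with the collagens showed no called difference between genotypes either. None of the 16 tested genes of collagen folding, modification and secretion passed, with 5 higher and 11 lower and a median of -0.05. The 2 with the smallest p were Colgalt2, a collagen galactosyltransferase, at -0.20 (SE 0.15) and Ppib, a prolyl isomerase of the endoplasmic reticulum, at -0.15 (SE 0.15). Of 8 genes of procollagen cleavage and crosslinking 0 passed, with a median of 0.01. Bmp1, the protease that removes the C-propeptide, was at 0.22 (SE 0.21) and its enhancer Pcolce at 0.31 (SE 0.37). Of 14 basement membrane partners 0 passed, with a median of -0.04. Lama4, the laminin chain of vessels and fat cells, was at -0.30 (SE 0.34) and Lama3 at -0.19 (SE 0.23). Of 10 fibril-binding proteins 0 passed (median -0.09), with the tenascin Tnxb at -0.14 (SE 0.21) and Podn at -0.10 (SE 0.18). Of 7 collagen receptors 0 passed (median -0.06), with the integrin subunits Itga1 at -0.21 (SE 0.15) and Itgb1 at -0.12 (SE 0.22). With the block and without both pool 2 arrays 0 genes of these 5 lists passed as well.

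Most of these partners were also lower in the pool 2 arrays. In control fat this held for 14 of 16 folding and secretion genes, 7 of 8 cleavage and crosslinking genes, 12 of 14 basement membrane partners, 9 of 10 fibril-binding proteins and 5 of 7 receptors. In AFO fat it held for 13, 8, 13, 9 and 5 of them. Of all 13453 genes tested, 7880 were lower in control pool 2 and 7939 in AFO pool 2. Higher in pool 2 of both genotypes were Colgalt2, Mia3, Hspg2, Podn, Itga2 and Lair1, with the widest shift for the receptor Lair1 (0.76 in control and 0.96 in AFO fat). The median shift in control and AFO fat was -0.58 and -0.39 for folding and secretion, -0.67 and -0.62 for cleavage and crosslinking, -0.50 and -0.70 for basement membrane partners, -0.82 and -0.77 for fibril-binding proteins and -0.58 and -0.34 for receptors. Lower by at least 1 log2 unit in both were the collagen chaperone Serpinh1 (-1.19 and -1.16), the lysyl hydroxylase Plod2 (-1.24 and -2.05), Loxl1 of the crosslinking oxidases (-1.96 and -1.57), the procollagen protease Adamts3 (-1.32 and -1.05), the linker Nid2 (-2.11 and -2.28) and the fibril-binding proteins Fmod (-2.96 and -2.61) and Aspn (-1.68 and -1.25). These 7 were named after their values were seen, and 2.42% of all genes tested were lower by as much in both genotypes. In pool 2, 1 of the 14 basement membrane partners was higher in AFO than in control fat, where 45.2% of all genes were higher. So were 6 of the 10 fibril-binding proteins, 8 of 16 folding and secretion genes, 4 of 8 cleavage and crosslinking genes and 3 of 7 receptors. Pcolce was higher in AFO pool 2 by 0.80. These counts set 1 array against 1 array and have no replicate check.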

How the data were processed

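Total RNA of 6 RNA pools was measured on Affymetrix 3′ arrays. The deposited values are log2 expression levels, made by the authors with RMA in Affymetrix Expression Console 1.4, per the submitters' processing notes. RMA equalises the arrays' distributions (medians 5.35 to 5.43) and compresses dim signals. The build behind the probe sets is not given in the sources used here.

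Of 45101 probe sets, 34945 carried 1 gene symbol in the platform annotation, and the 932 with several and 9160 unlisted were not used, nor were 64 controls. The rule names every collagen and the 2 genes of smallest p in each list of partner genes. It gives array values for types I, III, IV, V, VI, XV and XVIII. It also gives them for other collagens with non-overlapping genotypes or a pool 2 shift of 1 log2 unit. Array values of Col16a1 were added after they were seen. Members, 5 partner lists and 12 marker lists were chosen with earlier results of these data known.

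Genotypes were compared by limma 3.58.1 in R 4.3.3 (empirical Bayes with trend, Benjamini-Hochberg over all genes tested). The fit was run on simulated data of independent arrays without a shared pool shift, so this cannot check it for arrays with one. Deviations from the genotype means correlated across genes at 0.594, 0.799 and 0.589 for equal pool numbers, which met the rule for pairing (over 0.1). Pools 1 and 3 also correlated across numbers (0.441 and 0.362), and nothing in the labels states what arrays of equal number have in common. No array was imputed. Upstream sequence is from RefSeq. The number of arrays limits precision.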

Additional observations from a re-analysis of the deposited data

How the results depend on the processing

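No collagen was called in any of the 19 alternatives. The count of all genes called was 0, with 139 at an unadjusted p under 0.05 in limma. It was 2 with pool number as a replicate block, 91 without both pool 2 arrays, 270 without them and with the block, and 0 to 27 with each array left out, the 27 without AFO pool 2. The median collagen difference of 0.04 was -0.071 with array weights, whose estimate did not fully converge, and -0.12 (without control pool 2) to 0.22 (without AFO pool 2) with 1 array left out. Of the 35 collagens, 9 kept their sign under all alternatives tried on them and 26 did not. Col1a1, Col1a2, Col4a4, Col8a1, Col10a1, Col16a1 and Col27a1 kept it, apart from a second probe set of Col27a1 at -0.038. With 1 array left out Col1a1 ran from 0.36 (without control pool 2) to 0.69, Col1a2 from 0.09 (without control pool 2; 0.14 without AFO pool 3) to 0.31, Col10a1 from -0.30 to -0.11 (without control pool 2), Col27a1 from 0.11 (without control pool 3; 0.13 without AFO pool 3) to 0.28 and Col16a1 from 0.20 to 0.41. Col3a1 turned to -0.017 with array weights and -0.0255 without pool 2, with or without the block, and ran from -0.23 to 0.42 with 1 array left out. Col4a5 turned to -0.15 with array weights, -0.034 without pool 2, with or without the block, and -0.0795 on its second probe set, and ran from -0.90 to 0.97. With 1 array left out Col8a1 ran from -1.06 to -0.07 and Col4a4 from 0.09 to 1.06. For Col4a1, Col4a2, Col4a4, Col4a5, Col8a1 and Col18a1 the extremes came without control pool 2 (low) and AFO pool 2 (high). The left-out ranges of Col4a1 were -0.61 to 0.22, of Col4a2 -0.52 to 0.37, of Col4a3 -0.10 to 0.88 and of Col18a1 -0.64 to 0.36, and the second probe set of Col4a3 gave -0.060. The count of collagens lower by 1 log2 unit in pool 2 was 11, 10 under quantile normalisation and 11 under median centring, both chosen after seeing the data. Of 19 other collagen probe sets above the filter, 10 had the sign of the one used and 9 did not.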
